A study of Homo sapiens with 6 samples.

Results

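The DNA replication genes examined here encode the proteins that mark origins, load and start the replicative helicase, and copy DNA at the fork. They were chosen as 43 named genes, from the subunits of the origin recognition complex to fork protection factors, and all 43 were found by symbol among the 58676 gene IDs of the deposited table. All 43 were also among the 15408 genes that passed the filter on low values, 0.5 RPKM or more in at least 3 libraries. RPKM is a read count scaled by exon length and by the depth of the library.

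Before a cell enters S phase, the origin recognition complex (ORC) binds DNA and, with CDC6 and CDT1, loads the ring of MCM2 to MCM7 around it. Kinases then recruit CDC45 and the GINS complex, which turn the ring into the active helicase, and DNA polymerases alpha, delta and epsilon copy the strands with the sliding clamp PCNA, its loader RFC and the single-strand binding protein RPA. Many of these genes are transcribed under E2F factors around the start of S phase, and their RNAs are commonly abundant in proliferating tumour cells.

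Total RNA of a cell line labelled HCC, grown in DMEM with serum, was sequenced in 3 libraries labelled knockdown, whose titles name a sponge, and 3 libraries labelled control, whose titles give the number 238. The microRNA named in the title of the series is miR-19a, and sponges are RNAs whose binding sites take up a microRNA. The line is not named further, and neither the vector, the time after treatment nor the number of clones is given in the sources used here. No check of the labels came from the miR-19 genes, since MIR19A, MIR19B1 and MIR19B2 all had 0 RPKM in the 5 libraries used.

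The column of knockdown replicate 2 was left out because its values were out of step with the row IDs: its Spearman correlation with every other library was 0.017 to 0.019, against 0.822 to 0.887 among the other 5. The comparison is therefore of 2 knockdown and 3 control libraries. Read totals, worked back from RPKM, were 9296308 and 15198231 in knockdown replicates 1 and 3, against 9181567, 1948940 and 19605312 in control replicates 1, 2 and 3, and mitochondrial reads made up 8.30% and 7.83% in knockdown replicates 1 and 3, against 4.95% to 10.4% in the controls. Separate cultures are not stated for the replicates, and a p-value here reflects the spread between libraries alone, which may be technical. All 12 hepatocyte markers listed were above the filter, with a summed level of 1815 and 1903 RPKM in knockdown and of 1629 to 2026 RPKM in control. Of 10 immune cell markers 6, of 7 fibroblast markers 2 and of 5 endothelial markers 4 stayed under 0.5 RPKM in every one of these libraries, with MS4A1 and KDR at 0. Summed levels were 46.5 and 52.7 RPKM in knockdown and 45.0 to 51.5 RPKM in control for the immune list. They were 68.4 to 72.5 RPKM in knockdown and 63.9 to 83.7 RPKM in control for the fibroblast list. Most of this sum was LUM, with a mean of 54.0 RPKM in knockdown and of 59.7 RPKM in control. For the endothelial list the sums were 0.406 to 0.407 RPKM in knockdown and 0.567 to 1.06 RPKM in control.

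Sequences are shown for the microRNA named by the study, for its seed matches in the members' 3' ends, and for promoters of members, with no link to the differences tested. The mature microRNAs of the miR-19 family are shown with their seed, bases 2 to 8, in capitals (RefSeq, GRCh38.p14). Both have the same seed, and its match in a messenger RNA reads TTTGCAC.

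hsa-miR-19a-3p: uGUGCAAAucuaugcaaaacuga
hsa-miR-19b-3p: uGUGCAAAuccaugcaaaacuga

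In the longest annotated 3' untranslated region of each gene (GENCODE release 29), 3 of the 43 members held this match, which is 6.98%, against 1795 of 11762 coding genes tested, which is 15.3%. The members' 3' untranslated regions were shorter, with a median of 935 bases against 1327. The 3 sites are shown with the match in capitals, because they are the members' own matches to the microRNA named by the study. They lie from base 670 of the region in GINS1, from base 2138 in ORC2 and from base 1241 in POLD3.

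GINS1: cacacatggatTTTGCACatttccaccatg
ORC2: atacttgctggTTTGCACcttgcttttttt
POLD3: gtgctggtgatTTTGCACagtgagctctgc

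None of the 10 members with an unadjusted p under 0.05 below held the match. The 3 genes with a site had log2 differences below 0, as did 34 of the 40 without one.

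Promoters of 37 members were found in RefSeq (GRCh38.p14, 250 bases before to 50 after the annotated start). They were searched on both strands for the E2F-type words TTTGGCGC, TTTCCCGC, TTTGCCGC and TTTCGCGC. At least 1 word was present in 18 of these 37 promoters, or 48.6%, against 5.40% of the 9777 promoters of tested genes and 3.33% of all 27305 promoters in the table. A CCAAT box, the word CCAAT on either strand, was present in 59.5% of the members' promoters and in 36.6% of those of tested genes. Joined pairs, in which a word and a reversed word share 4 bases, were found in 6 of all 27305 promoters, and 2 of the 6 were those of MCM2 and MCM6. MCM2 held TTTCGCGCGAAA, starting at base 3 after the start site, and MCM6 held TTTGGCGCGAAA at 2 places, starting 152 and 90 bases before it. The promoters of MCM2 (chr3:127598161-127598460, plus strand), MCM6 (chr2:135876394-135876693, minus strand) and CDC6 (chr17:40287629-40287928, plus strand) are printed since these genes had the lowest p-values of the list. CDT1 (chr16:88803539-88803838, plus strand) is printed because it held a word too while its values lay on the other side of the controls. Capitals mark the words.

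MCM2: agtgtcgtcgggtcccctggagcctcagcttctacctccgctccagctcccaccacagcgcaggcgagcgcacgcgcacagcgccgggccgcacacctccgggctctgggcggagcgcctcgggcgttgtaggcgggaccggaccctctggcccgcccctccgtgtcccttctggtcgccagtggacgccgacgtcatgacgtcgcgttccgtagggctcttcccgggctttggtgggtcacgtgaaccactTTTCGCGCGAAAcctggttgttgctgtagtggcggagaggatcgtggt
MCM6: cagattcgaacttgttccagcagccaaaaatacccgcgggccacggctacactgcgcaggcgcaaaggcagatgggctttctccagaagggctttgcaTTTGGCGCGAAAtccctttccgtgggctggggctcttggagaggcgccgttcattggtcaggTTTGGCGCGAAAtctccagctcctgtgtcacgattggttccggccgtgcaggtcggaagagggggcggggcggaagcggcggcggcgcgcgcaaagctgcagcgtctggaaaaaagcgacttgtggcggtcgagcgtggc
CDC6: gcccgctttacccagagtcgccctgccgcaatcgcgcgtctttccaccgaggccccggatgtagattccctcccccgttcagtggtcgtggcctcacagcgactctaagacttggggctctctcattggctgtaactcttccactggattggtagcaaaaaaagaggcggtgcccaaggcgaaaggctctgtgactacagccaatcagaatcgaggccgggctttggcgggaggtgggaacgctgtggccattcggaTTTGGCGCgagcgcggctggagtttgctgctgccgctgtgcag
CDT1: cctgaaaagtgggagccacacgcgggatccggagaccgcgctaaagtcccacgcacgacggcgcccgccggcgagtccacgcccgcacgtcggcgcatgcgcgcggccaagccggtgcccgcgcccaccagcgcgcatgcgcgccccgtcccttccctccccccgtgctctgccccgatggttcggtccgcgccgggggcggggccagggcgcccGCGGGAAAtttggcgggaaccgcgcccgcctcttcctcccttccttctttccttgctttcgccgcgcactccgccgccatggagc

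Members with and without a word had like medians, with no test made. Only the words given above were searched. CDC45 and MCM10, counted as without a word, held tttggcgg, which differs from TTTGGCGC in its last base. The split is therefore not one between promoters with and without E2F-type sites. The median log2 difference was -0.26 for the 18 with a word, 16 of them below 0, and -0.24 for the 19 without one, 16 of them below 0. A match describes letters in this window, whose start site can differ from that of the GENCODE coordinates given below, and is not a measured binding site.

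Levels of most replication genes were lower in the knockdown libraries than in the controls, most clearly for the MCM proteins, and no gene passed the test. Of 43 members 37, or 86.0%, had a log2 difference (knockdown minus control) below 0, against 7707 of all 15408 genes tested. The median difference was -0.26 over the members and 0.00 over all genes. Differences are on the scale of log2(RPKM + 0.5), which understates the change of low genes. With limma's moderated test and Benjamini-Hochberg adjustment over all 15408 genes, 0 members passed an adjusted p under 0.05, as did 0% of all genes in either direction, and the lowest adjusted p of a member was 0.71.

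At an unadjusted p under 0.05, 10 members were lower and 0 higher, which is 23.3% of the members against 2.54% of all genes tested that were lower at that level. The 10 were ORC1, CDC6, MCM2, MCM4, MCM5, MCM6, MCM10, CDC45, POLA1 and CLSPN. Both knockdown libraries lay below all 3 controls for 20 members, or 46.5%, against 13.6% of all genes tested. They lay above all 3 controls for CDT1 only, 1 of 43 members, against 14.3% of all genes tested. The list and these genes were chosen with earlier results of the same libraries known. The count of 10 depended on single libraries, and was 4 without control replicate 1, 12 without control replicate 2, 5 without control replicate 3, 3 without knockdown replicate 1 and 0 without knockdown replicate 3. The share of all genes lower at that level was 1.88% without control replicate 1, 4.02% without control replicate 2, 1.82% without control replicate 3, 2.71% without knockdown replicate 1 and 0.437% without knockdown replicate 3. These are bulk libraries, in which fewer cells in S phase and less of these RNAs per cell cannot be told apart.

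**Figure D1:**
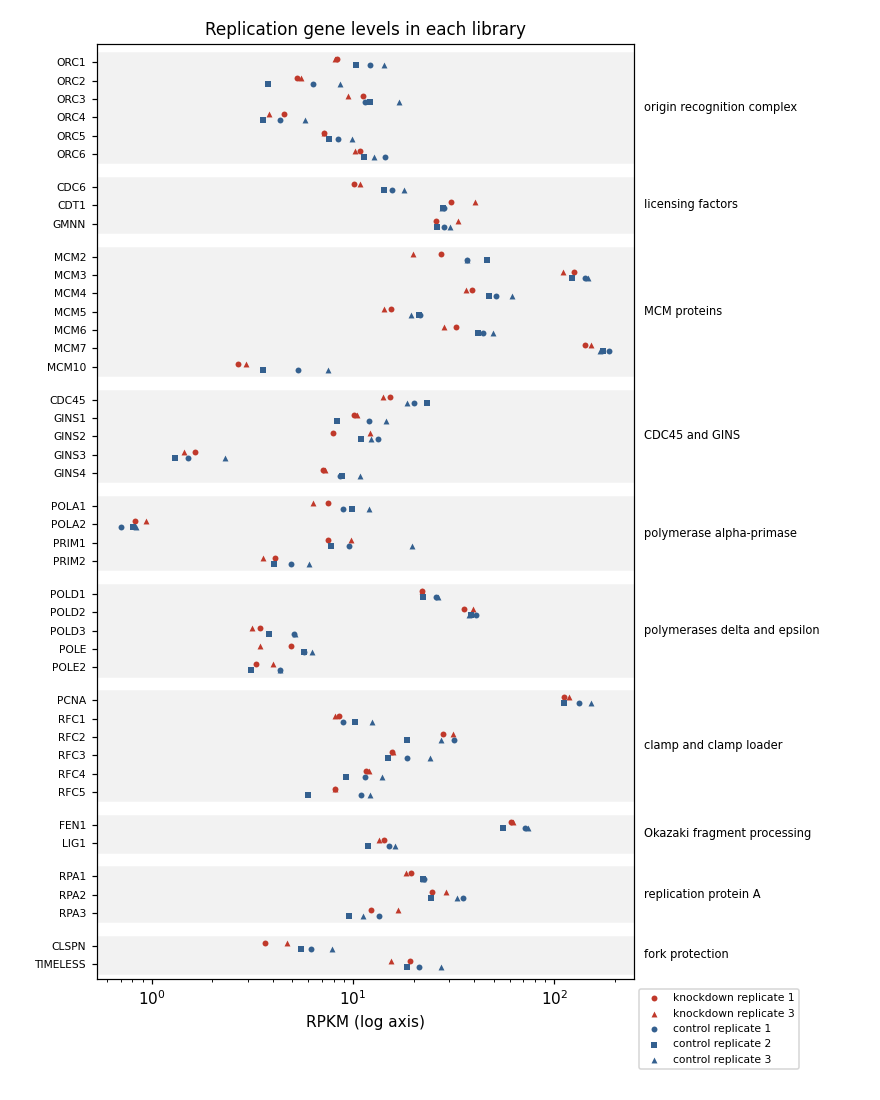
RPKM of the 43 members on a log axis, 1 point per library, with knockdown in red above control in blue in each row and members grouped by complex. Red points sit left of all blue points in 20 rows, 10 of them ORC or MCM genes, and right of them only for CDT1.

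In the sentences that follow, knockdown values are of replicates 1 and 3 and control values of replicates 1, 2 and 3, in that order. Coordinates are of GRCh38 in GENCODE release 29.

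The origin recognition complex binds origins and serves as the platform for loading the helicase. ORC1 (ENSG00000085840, chromosome 1 from 52372829 to 52404459, minus strand), the subunit whose protein level changes through the cell cycle in human cells, was at 8.35 and 8.13 RPKM in knockdown and at 12.2, 10.4 and 14.3 RPKM in control. The groups did not overlap, and the log2 difference was -0.54 (SE 0.18, unadjusted p = 0.0282, limma adjusted p = 0.71). ORC2, another core subunit and one of the 3 members with a miR-19 match, was at 5.25 and 5.53 RPKM in knockdown and at 6.29, 3.78 and 8.60 RPKM in control. Here both knockdown values lay inside the range of the controls, with a difference of -0.12 (SE 0.34). The other subunits ORC3, ORC4, ORC5 and ORC6 had differences of -0.36 to -0.09, with separated groups for ORC3, ORC5 and ORC6 and overlap for ORC4. The 6 ORC genes were all on that side of 0 (median -0.26).

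Licensing factors, which load the ring or block its loading, did not move together. CDC6 (ENSG00000094804, chromosome 17 from 40287633 to 40304657, plus strand), the ATPase that joins ORC to load the MCM ring, was at 10.1 and 10.8 RPKM in knockdown and at 15.5, 14.2 and 18.0 RPKM in control. Its highest knockdown value was below its lowest control value, and the difference was -0.58 (SE 0.16, unadjusted p = 0.0145, limma adjusted p = 0.71). CDT1 (ENSG00000167513, chromosome 16 from 88803213 to 88809258, plus strand), which brings the MCM ring to ORC, was at 30.7 and 40.4 RPKM in knockdown and at 28.5, 27.99 and 27.8 RPKM in control. It is named here because it was the single member above all controls, and its difference of 0.32 (SE 0.17, unadjusted p = 0.11) came to 0.13 when knockdown replicate 3 was left out, and to 0.52 when knockdown replicate 1 was. After trends with exon length and GC content were taken out of each library, the difference of CDT1 was 0.0015. GMNN encodes geminin, the inhibitor of CDT1, and was at 26.0 and 33.2 RPKM in knockdown and at 28.4, 26.1 and 30.3 RPKM in control. Its groups overlapped, with a difference of 0.06 (SE 0.17), and of 0.0321 after those trends were taken out. With the trends left in, the ratio of CDT1 to GMNN, both per length, was 1.18 and 1.22 in knockdown and 1.00, 1.07 and 0.915 in control. Ratios of CDC6 to ORC1, POLE to POLE2 and MCM2 to ORC2 were also taken, and in each the groups overlapped. That of CDC6 to ORC1 was 1.21 and 1.33 in knockdown and 1.28, 1.37 and 1.26 in control.

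The MCM genes had the lowest median of the 10 groups in the main fit, -0.49, and 7 of 7 were below 0. That rank was not kept throughout. Fork protection was lower without control replicate 2, at -0.5795 against -0.575 for MCM, and without knockdown replicate 3, at -0.47 against -0.45. MCM2 (ENSG00000073111, chromosome 3 from 127598223 to 127622436, plus strand), a ring subunit that also binds histones, was at 27.5 and 19.9 RPKM in knockdown and at 36.7, 46.3 and 36.7 RPKM in control. The groups were separated, and the difference was -0.75 (SE 0.21, unadjusted p = 0.0134, limma adjusted p = 0.71). Without 1 library the difference of MCM2 was -0.97 to -0.52. An antisense transcript on the opposite strand, AC023593.1, covers 22.7% of its exon bases. Strand use in the counting is not given in the sources used here, so reads of such overlapping genes cannot be told apart.

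MCM6 (ENSG00000076003, chromosome 2 from 135839626 to 135876426, minus strand), a ring subunit that contacts CDT1, was at 32.4 and 28.4 RPKM in knockdown and at 44.4, 42.0 and 49.7 RPKM in control. It had the lowest unadjusted p of the 43 members, 0.0123, at a difference of -0.57 (SE 0.16, limma adjusted p = 0.71). MCM5 (ENSG00000100297, chromosome 22 from 35400063 to 35425430, plus strand), which closes the gate of the ring together with MCM2, was at 15.4 and 14.2 RPKM in knockdown and at 21.4, 21.2 and 19.5 RPKM in control. Its libraries were tight within each group, and the difference was -0.47 (SE 0.14, unadjusted p = 0.0175). MCM4 (ENSG00000104738, chromosome 8 from 47960185 to 47978160, plus strand), one of the catalytic subunits, was at 39.0 and 36.6 RPKM in knockdown and at 51.4, 47.6 and 62.1 RPKM in control. Again no knockdown library reached a control, with a difference of -0.49 (SE 0.17, unadjusted p = 0.0308).

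MCM3 and MCM7 were the most abundant ring genes and differed least. MCM3, which stays bound to MCM5 in the ring, was at 126 and 111 RPKM in knockdown and at 143, 122 and 147 RPKM in control. Knockdown replicate 1 lay above control replicate 2, so the groups overlapped, and the difference was -0.21 (SE 0.17). MCM7, a catalytic subunit, was at 143 and 153 RPKM in knockdown and at 188, 175 and 169.8 RPKM in control, separated but at a smaller difference of -0.26 (SE 0.16). MCM10 (ENSG00000065328, chromosome 10 from 13161554 to 13211104, plus strand) is not part of the ring and helps to activate the helicase. It was at 2.68 and 2.93 RPKM in knockdown and at 5.33, 3.58 and 7.48 RPKM in control. Its difference of -0.80 (SE 0.31, unadjusted p = 0.0458) was the largest in size among the members, and the control values spread relatively more than those of the other MCM genes, with 38 reads behind that of control replicate 2, a counting error of 16.2%.

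Summed over MCM2 to MCM7, the level was 382 and 363 RPKM in knockdown and 485, 454 and 484 RPKM in control. Per length, MCM7 was the highest and MCM5 the lowest of the ring genes in all 5 libraries, with a ratio of 9.25 and 10.8 in knockdown and of 8.76, 8.26 and 8.70 in control. RPKM of the ring genes was thus not equal in either group, although the ring holds the proteins in equal numbers. The lengths used join all annotated exons, 7338 bases for MCM5 and 4386 for MCM7, so these ratios are not amounts of RNA.

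**Figure D2:**
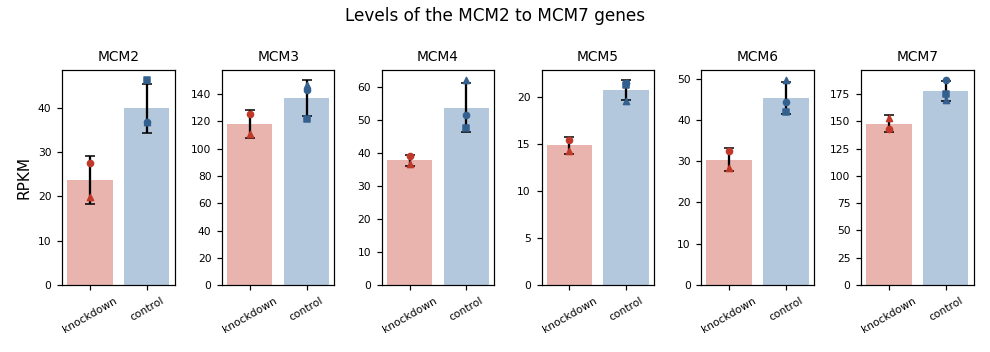
RPKM of the 6 ring genes, with bars for the mean, error bars for the SD and points for libraries (n = 2 knockdown, red, and n = 3 control, blue; circles replicate 1, squares replicate 2, triangles replicate 3). Each panel has its own axis from 0, and only in MCM3 does a knockdown point reach above a control point.

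CDC45 and GINS bind the loaded ring and make it an active helicase. CDC45 (ENSG00000093009, chromosome 22 from 19479459 to 19520612, plus strand) was at 15.2 and 14.1 RPKM in knockdown and at 20.2, 23.3 and 18.5 RPKM in control. The groups did not overlap, with a difference of -0.47 (SE 0.16, unadjusted p = 0.0292, limma adjusted p = 0.71). The GINS genes were closer to the controls. GINS3, the least abundant of them, was at 1.64 and 1.44 RPKM in knockdown and at 1.51, 1.31 and 2.31 RPKM in control, values that overlap at a difference of -0.09 (SE 0.26). GINS4 was the one GINS gene with separated groups, at 7.11 and 7.27 RPKM in knockdown and at 8.63, 8.81 and 10.9 RPKM in control, and its difference was -0.36 (SE 0.17). An antisense transcript covers 21.2% of the exon bases of GINS4. GINS1 and GINS2 differed by -0.13 (SE 0.26) and -0.29 (SE 0.22), with overlap. The median over CDC45 and the 4 GINS genes was -0.29.

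Polymerase alpha with primase lays down the short primers from which each new strand starts. POLA1 (ENSG00000101868, chromosome X from 24693919 to 24996986, plus strand), its catalytic subunit, was at 7.54 and 6.30 RPKM in knockdown and at 8.94, 9.88 and 12.04 RPKM in control. Every control library lay above both knockdown libraries, and the difference was -0.53 (SE 0.19, unadjusted p = 0.0348, limma adjusted p = 0.71). POLA2, its regulatory subunit, was at 0.827 and 0.931 RPKM in knockdown and at 0.704, 0.807 and 0.837 RPKM in control. It was the least abundant member, with 9 reads in control replicate 2 and 35.1% of its exon bases shared with the gene AP000944.2 on the same strand, so its value is uncertain. The difference of 0.10 (SE 0.22) lay within its error. The primase subunits PRIM1 and PRIM2 differed by -0.39 (SE 0.41) and -0.33 (SE 0.21), and their groups overlapped. PRIM1 reached 19.8 RPKM in control replicate 3 against 7.79 and 9.52 RPKM in the other controls, and its difference was -0.0054 without that library. The gene AC117378.1 on the same strand shares 14.9% of the exon bases of PRIM1. The median of the 4 genes was -0.36, and -0.10 without control replicate 3.

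Polymerases epsilon and delta copy the leading and the lagging strand. POLE, the catalytic subunit of epsilon, was at 4.90 and 3.46 RPKM in knockdown and at 5.74, 5.68 and 6.28 RPKM in control. Its groups were separated, with a difference of -0.47 (SE 0.20, unadjusted p = 0.0592), and of -0.24 without knockdown replicate 3. Its partner POLE2 was at 3.28 and 4.01 RPKM in knockdown and at 4.31, 3.13 and 4.32 RPKM in control. POLD2, a small subunit of delta, was at 35.5 and 39.6 RPKM in knockdown and at 40.8, 38.5 and 37.7 RPKM in control, which is a difference of -0.06 (SE 0.14) with overlap. POLD3, another delta subunit and a carrier of the miR-19 match, differed by -0.44 (SE 0.20) with separated groups, and the catalytic POLD1 by -0.17 (SE 0.15). The median of the 5 genes, each of them below 0, was -0.17, or -0.34 after trends with exon length and GC content were taken out of each library.

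For the sliding clamp, its loader and the factors that finish the lagging strand, the groups overlapped in all genes but RFC1. PCNA, which tethers the polymerases to DNA, was at 113 and 119 RPKM in knockdown and at 133, 112 and 152 RPKM in control, and 3 annotated pseudogenes may share its reads, depending on the counting. Pseudogenes are also annotated for RPA2, FEN1, POLD2, RFC3 and RFC5. Its difference was -0.18 (SE 0.19). RFC1, the large subunit of the loader, was at 8.57 and 8.16 RPKM in knockdown and at 8.87, 10.2 and 12.4 RPKM in control, the only RFC gene with separated groups (difference -0.30, SE 0.19, and -0.18 without control replicate 3). RFC4 was at 11.6 and 11.99 RPKM in knockdown and at 11.5, 9.25 and 14.0 RPKM in control, a difference of 0.05 (SE 0.21) that lay on the other side of 0 without control replicate 2. RFC2, RFC3 and RFC5 had differences of -0.26 to 0.23 with overlap, RFC2 being the one above 0. The median over PCNA and the 5 RFC genes was -0.18, and -0.04 without control replicate 3.

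FEN1, the nuclease that trims Okazaki fragments, was at 61.2 and 62.5 RPKM in knockdown and at 71.5, 55.9 and 73.9 RPKM in control. LIG1, the ligase that seals them, was at 14.3 and 13.5 RPKM in knockdown and at 15.2, 11.9 and 16.1 RPKM in control. For both genes the knockdown libraries lay between the lowest and the highest control, with differences of -0.11 (SE 0.18) and -0.04 (SE 0.18).

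RPA coats single-stranded DNA behind the helicase. RPA1, its large subunit, was at 19.4 and 18.4 RPKM in knockdown and at 22.7, 22.2 and 22.3 RPKM in control. These groups were separated, with a difference of -0.24 (SE 0.13, unadjusted p = 0.125). RPA2 was at 24.6 and 28.9 RPKM in knockdown and at 35.3, 24.4 and 33.0 RPKM in control, with overlap (difference -0.19, SE 0.21). RPA3, the small subunit, differed by 0.33 (SE 0.22), the highest value among the members, with 16.8 RPKM in knockdown replicate 3 and 12.3 RPKM in knockdown replicate 1 against 9.53 to 13.5 RPKM in control. The difference of RPA3 was 0.12 without knockdown replicate 3, 0.55 without knockdown replicate 1 and 0.21 without control replicate 2.

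Claspin and Timeless travel with the fork and pass stalling signals to the checkpoint kinase. CLSPN (ENSG00000092853, chromosome 1 from 35720218 to 35769967, minus strand) was at 3.64 and 4.72 RPKM in knockdown and at 6.18, 5.50 and 7.87 RPKM in control. No overlap was seen, and the difference was -0.58 (SE 0.22, unadjusted p = 0.0422, limma adjusted p = 0.71). TIMELESS was at 19.2 and 15.5 RPKM in knockdown and at 21.3, 18.6 and 27.2 RPKM in control, where knockdown replicate 1 lay above control replicate 2 (difference -0.35, SE 0.22, and -0.20 without control replicate 3 or knockdown replicate 3).

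**Figure D3:**
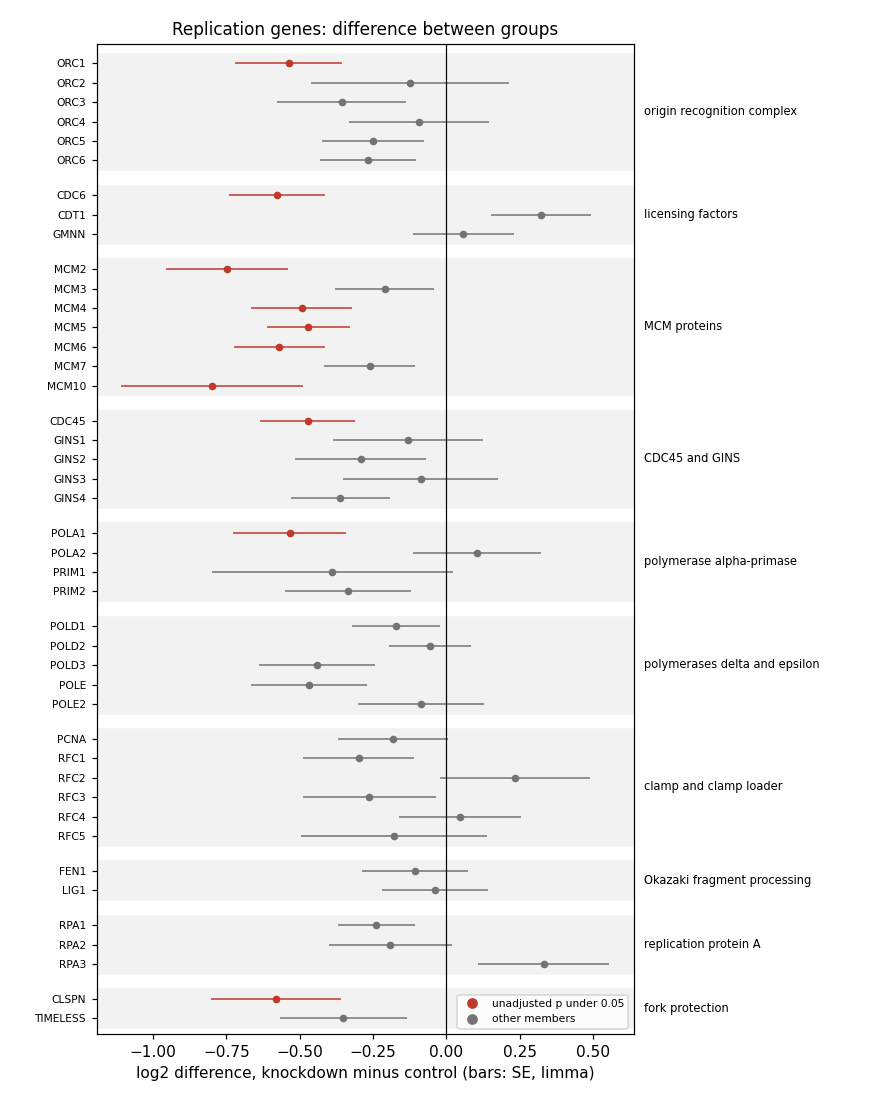
Log2 difference, knockdown minus control, of each member with its SE from limma, in red for the 10 members at an unadjusted p under 0.05. The MCM and ORC genes all lie left of 0, while the points right of 0 are CDT1, GMNN, POLA2, RFC2, RFC4 and RPA3.

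Across libraries, part of the spread among controls was shared by all genes. The median log2 level relative to the control mean was -0.12 in control replicate 2, the shallowest library, and 0.13 in control replicate 3, the deepest, over all genes tested. Of the 3 controls, replicate 3 had the highest value for 31 of 43 members and replicate 2 the lowest for 32. The members rested on a median of 95 reads in control replicate 2, where 23 of them had under 100 reads, and of 778.5 reads over the other 4 libraries. Whether depth played a part in the members' difference was not tested. Relative to each library's median of all genes, the members' median was -0.24 and -0.26 in knockdown and 0.02, -0.05 and 0.04 in control. The same value for the MCM genes was -0.45 and -0.54 in knockdown and 0.03, 0.01 and -0.03 in control. The clamp and its loader were at -0.21 and -0.16 in knockdown and at 0.02, -0.19 and 0.13 in control, where the groups overlapped. Without control replicate 3 the median over all members was -0.16, without control replicate 2 it was -0.35, and without any 1 library the MCM median was -0.58 to -0.45.

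**Figure D4:**
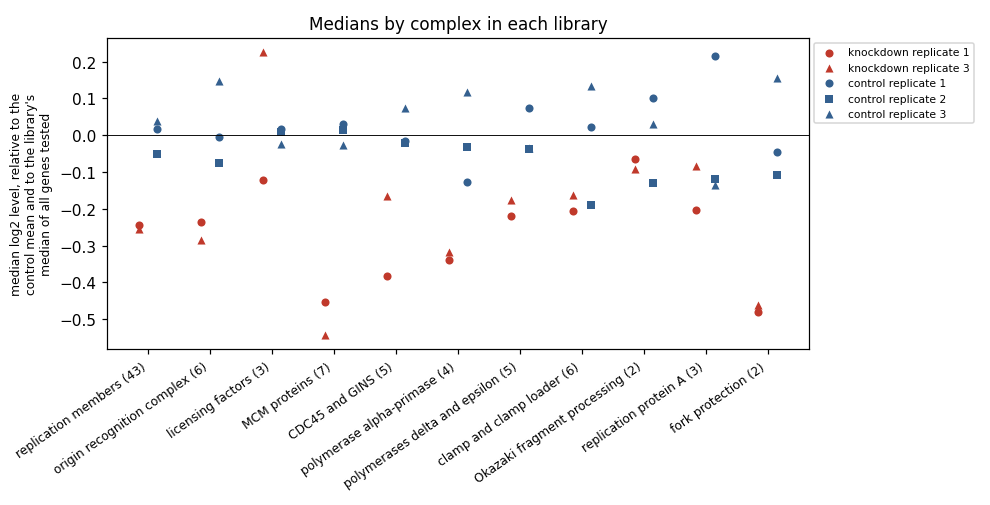
Median log2 level of each complex in each library, relative to the control mean and to the library's median of all genes tested, with the number of genes in brackets and knockdown (red) left of control (blue). Knockdown points lie below all control points for the 43 members together. The same holds for the ORC, MCM, CDC45 and GINS, polymerase alpha-primase, polymerase delta and epsilon, and fork protection groups. At least 1 knockdown point reaches a control point's level in the licensing, clamp loader, Okazaki fragment and RPA groups.

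**Figure D5:**
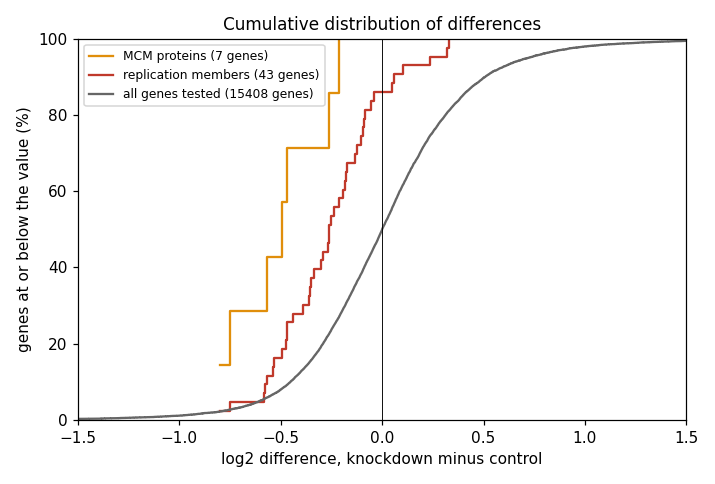
Cumulative share of genes, in percent, by log2 difference (knockdown minus control) for the 7 MCM genes, the 43 members and all 15408 genes tested; values beyond 1.5 on either side are not drawn. The curve of the members crosses 0 at 86.0% and that of all genes close to the middle of the axis.

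Other genes of the pathway, in lists drawn up with earlier results known, were also more often below 0 than all genes, and 0 of them passed an adjusted p under 0.05. Of 17 origin firing factors 16 were below 0, with a median of -0.42 and with 2 lower and 0 higher at an unadjusted p under 0.05. MCMBP, which binds MCM proteins, and DTL, which targets CDT1 for destruction, differed by -0.54 (SE 0.15) and -0.58 (SE 0.22). Among 18 E2F, RB and DREAM factors 17 were below 0 (median -0.34, 3 lower and 0 higher at an unadjusted p under 0.05). E2F8, a repressor of the E2F family, was at 3.90 and 3.04 RPKM in knockdown and at 5.58, 5.45 and 7.31 RPKM in control. RBL1, a relative of RB, differed by -0.57 (SE 0.21). Of 9 factors for chromatin assembly at forks 7 were below 0 (median -0.33), and UHRF1, which keeps DNA methylation through replication, was the single one at an unadjusted p under 0.05. Genes of dNTP supply were below 0 for 7 of 8 (median -0.29), with RRM1, the large subunit of ribonucleotide reductase, at -0.53 (SE 0.18).

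Fork accessory factors were split, with 9 of 17 tested below 0 and a median of -0.20, and none reached an unadjusted p under 0.05. RNASEH2A, the remaining one of these 18 genes, did not pass the filter. The checkpoint list had 8 of 10 below 0 (median -0.16). CDC25A, a phosphatase that activates the S phase kinases, was the one at an unadjusted p under 0.05, with a difference of -0.55 (SE 0.17). Mitosis markers were below 0 for 14 of 16, with a median of -0.25 and with MKI67 and NUSAP1 at -0.74 (SE 0.21) and -0.44 (SE 0.15). Their summed level was 617 and 612 RPKM in knockdown and 742, 615 and 826 RPKM in control, so control replicate 2 lay between the knockdown libraries. Of the hepatocyte markers 5 of 12 were below 0. The other 7 were above 0. Of the 12 markers, 2 were higher at an unadjusted p under 0.05, against 585 of all 15408 genes. The 2 were SERPINA1 and TF, secreted liver proteins, at 0.54 (SE 0.17) and 0.43 (SE 0.15). APOB, the core of liver lipoproteins, was the 1 of the 12 that was lower at an unadjusted p under 0.05, at -0.88 (SE 0.34). Of the 3 immune markers tested 2 were below 0 (median -0.04), CD14 at -0.04 (SE 0.20) and LYZ at -0.06 (SE 0.18), while CD3D, at an unadjusted p under 0.05, differed by 0.63 (SE 0.20). The other T cell markers CD3E and CD2 had at most 1 read in any of the 5 libraries. Of the 4 fibroblast markers tested 2 were below 0 and 2 above (median 0.19), and 0 reached an unadjusted p under 0.05. The 1 endothelial marker tested was at -0.36. What these markers contribute to the replication genes' difference was not tested.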

How the data were processed

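RNA was sequenced in 6 libraries. RPKM values of all libraries were deposited by the authors in 1 table, which has that name per the labels' description, and HISAT2 and GRCh38 are named in the submitters' processing notes. The sources used here do not name the counter, the annotation or any filter. All 58676 gene IDs were found in GENCODE release 29, and in 5 libraries 100% of values above 0 were whole reads after multiplication by exon length (tolerance 0.002 of a read). Members and lists were chosen with earlier results of these data known. The test was limma 3.58.1 (R 4.3.3; lmFit and trended eBayes), two-sided, for log2(RPKM + 0.5) of genes reaching 0.5 RPKM in 3 or more of the 5 libraries, without covariates, with Benjamini-Hochberg adjustment over all genes. Lists were described by counts and medians only. Full values are given for members at an unadjusted p under 0.05 and, in each complex, for those of largest and smallest moderated statistic. In the other lists, up to 2 genes a direction at an unadjusted p under 0.05 are named, except 1 gene that is not reported here. CDT1, GINS4, RPA3, PRIM1, PRIM2, PCNA, MCM7, POLE2 and LUM were given values after these were seen. Alternatives were other pseudocounts, filters and scalings, no trend, the replicate number as a block, leaving out each library, all 6 columns, voom on recovered reads, and removal of length and GC trends. The code was tested on simulated data. Counting errors are Poisson errors of reads without molecular identifiers and cover counting only.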

Additional observations from a re-analysis of the deposited data

How the results depend on the processing

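On the 5 libraries or 4 of them, 0 members passed an adjusted p under 0.05 in limma under any alternative, and 32 of 43 kept their direction in all of them. The lowest adjusted p of a member was 0.152, with voom and sample weights. Over all genes, 7 lower and 33 higher calls were made with the replicate number as a block, and 1 lower and 3 higher with voom and sample weights, against 0 and 0. The same-numbered libraries deviated from their group means with correlations of -0.168 and 0.018. With 2 knockdown libraries their deviations mirror each other, so these correlations cannot decide whether the numbers are pairs. The numbers were not taken as pairs in the main fit, and in the block fit control replicate 2 drops out. Median ranges without 1 library were -0.35 to -0.16 for all members, -0.38 to -0.17 for ORC, -0.12 to 0.23 for licensing factors, -0.58 to -0.45 for MCM, -0.38 to -0.16 for CDC45 and GINS, -0.51 to -0.10 for polymerase alpha-primase, -0.25 to -0.13 for delta and epsilon, -0.30 to -0.04 for clamp and loader, -0.20 to 0.0065 for FEN1 and LIG1, -0.24 to -0.08 for RPA and -0.58 to -0.32 for fork protection. Leaving out control replicate 2 gave the lowest and control replicate 3 the highest of these medians for all members, ORC, both polymerase groups, clamp and loader, FEN1 and LIG1, and fork protection. The median of polymerases delta and epsilon was -0.34 with length and GC trends removed, where ORC2 and ORC4 were at 0.0375 and 0.0334. RFC4 was at -0.10 with the replicate block and -0.0253 with voom. With voom on recovered reads the medians were -0.54 for fork protection, -0.51 for polymerase alpha-primase and -0.50 for MCM.

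Without 1 library, the range crossed 0 for ORC2 (-0.42 to 0.13), ORC4 (-0.24 to 0.0735), GMNN (-0.12 to 0.23), GINS1 (-0.34 to 0.0412), GINS2 (-0.59 to 0.0024), GINS3 (-0.22 to 0.10), POLD2 (-0.13 to 0.022), POLE2 (-0.22 to 0.0416), RFC4 (-0.10 to 0.19), RFC5 (-0.47 to 0.0031) and LIG1 (-0.16 to 0.0451). With all 6 columns as deposited, where the values of knockdown replicate 2 do not belong to these genes, the medians were -1.68 for all members, -1.66 for ORC, -1.91 for licensing, -2.55 for MCM, -1.68 for CDC45 and GINS, -0.89 for alpha-primase, -1.10 for delta and epsilon, -1.38 for clamp and loader, -2.04 for FEN1 and LIG1, -1.998 for RPA and -0.92 for fork protection. The median over all genes tested in that fit was -0.91. Members on the other side of 0 there were CDT1 (-1.73), GMNN (-1.91), GINS3 (0.78), POLA2 (-0.38), POLD1 (0.39), POLE (0.19), RFC4 (-0.17), RPA3 (-1.30) and CLSPN (0.23). In each of these cases the cause was not tested, beyond the construction of the 6-column fit.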
